A study of Mus musculus with 11 samples.

Results

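The genes described here carry the innate pattern sensing pathways: the Toll-like receptors, their co-receptors, adaptors and kinases, the NOD-like receptors with the inflammasome, and the RIG-I-like receptors. They were chosen by gene name, and 38 of the 758 genes in the normalized table belong to them. All 38 that the 780-gene panel carries passed the authors' filter on low expression. RNA of whole tumors was measured on an nCounter immune oncology panel, which counts every mRNA with a probe of its own. The tumors were MC38, a mouse colon carcinoma line grown under the skin of the flank. The hetIL-15 group (n = 6 tumors) received the heterodimer of IL-15 and its receptor alpha chain by intraperitoneal injection, 3 µg a dose at 3 doses a week, and the PBS group (n = 5 tumors) received PBS. In both groups C57BL/6 mice aged 6 to 8 weeks were given 100000 to 200000 MC38 cells, treatment began 5 days later, and tumors were taken 3 h after injection 4. Since whole tumors were lysed, fewer cells of a type and less RNA per cell cannot be told apart.

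Toll-like receptors recognize conserved microbial molecules and products of damaged cells, at the cell surface or in endosomes, and signal through the adaptors Myd88 and Ticam1 (TRIF) to kinases of the IRAK and TBK1 families, NF-kB and interferon regulatory factors. NOD-like receptors sense bacterial cell wall fragments and cell stress in the cytosol, and the NLRP3 inflammasome activates caspase-1, which matures IL-1 beta and IL-18. RIG-I-like receptors bind viral RNA and signal through Mavs to type I interferon. In tumors many of these genes are expressed by macrophages and dendritic cells, and many, such as the cytosolic sensors, by other cells too.

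No member passed an adjusted p of 0.05 in either direction (limma, 0 of 38), where 2.11% of all genes did (16 of 758). At an unadjusted p of 0.05, 3 members were reached, namely *Tirap*, *Ticam2* and *Cd180*, all with the lower mean in hetIL-15 tumors. That is 7.89% of the members, against 11.9% of all genes in either direction and 4.49% of all genes in the lower direction. Scaled to housekeeping genes, as described below, the list differed, with 4 members at an unadjusted p of 0.05: *Tirap* with the lower mean in hetIL-15 tumors, and *Nod2*, *Casp1* and *Ly96* with the higher one (11.6% of all genes). By the exact Mann-Whitney test the members below an unadjusted p of 0.05 were *Cd180* and *Ticam2*, lower in mean, and *Ifih1*, higher (9.1% of all genes). That test cannot make a call here, since the smallest adjusted p of any gene was 0.173. No member had groups that did not overlap, against 2.51% of all genes. The mean was lower in hetIL-15 tumors for 24 members, or 63.2%, against 56.5% of all genes. The members had a median log2 fold change of -0.10, against -0.03 over all genes.

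The intervals were narrow for most members. The 95% interval of the log2 fold change lay within a 2-fold change for 33 of 38 members (86.8%), against 75.7% of all genes, and within a 1.5-fold change for 19 of them, against 43.9% of all genes. The SD within groups had a median of 0.29 log2 units over the members and 0.34 over all genes. Values of different genes come from different probes and are not compared as levels.

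**Figure D1:**
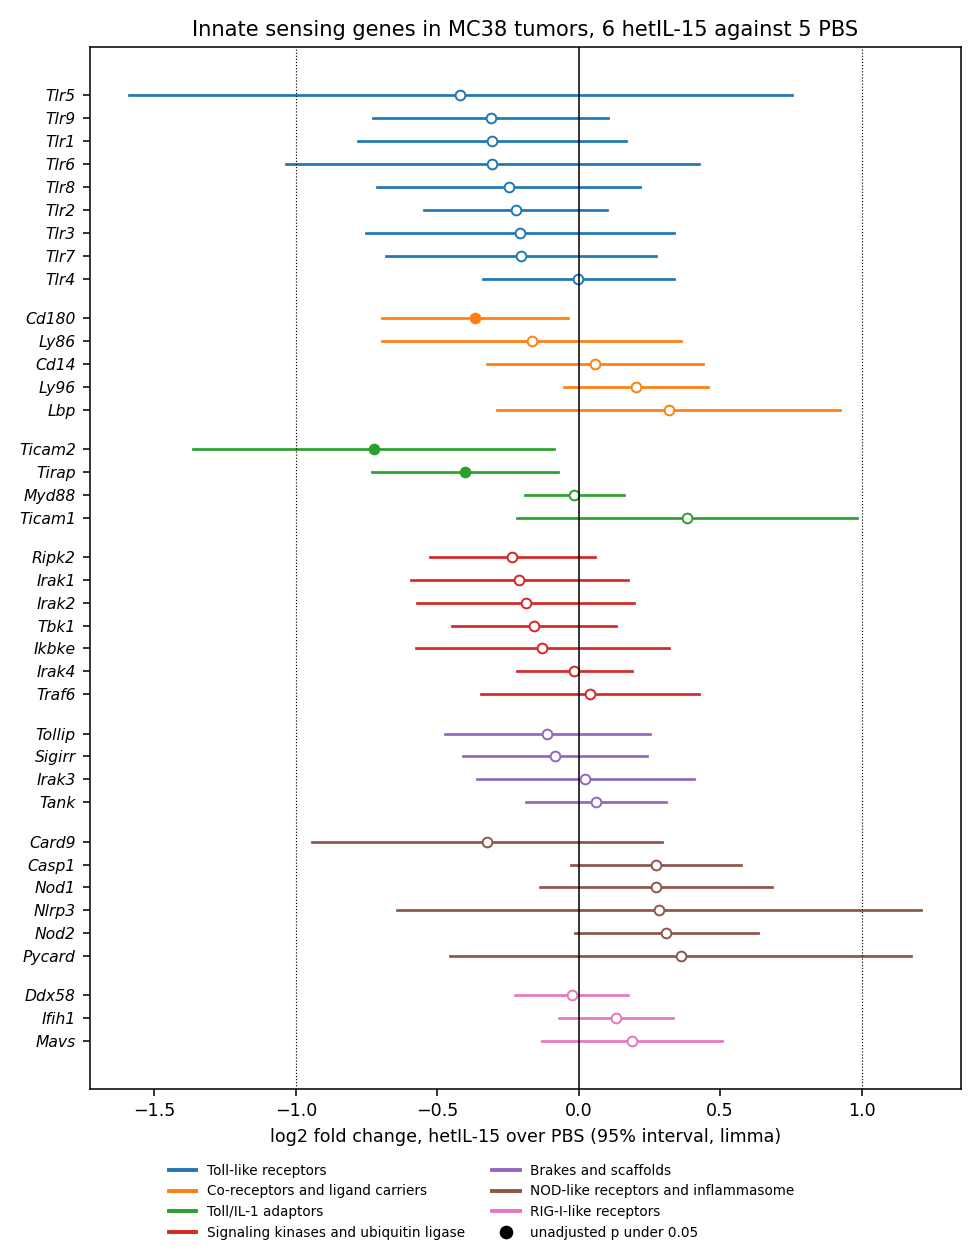
Log2 fold change (hetIL-15 over PBS, horizontal axis) of each of the 38 genes with its 95% interval, grouped and colored by role; filled points mark an unadjusted p under 0.05, and dotted lines mark 2-fold changes. All 9 Toll-like receptors lie at or below 0, 5 of 6 NOD-like receptor and inflammasome genes lie above it, and only the intervals of Ticam2, Tirap and Cd180 leave out 0.

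Facts of the whole table bear on every value below. The values had been quantile normalized between tumors, which gives all tumors nearly the same distribution. The 20 housekeeping genes averaged 0.09 log2 units lower in hetIL-15 tumors than in PBS tumors, so scaling to them adds 0.09 to each log2 fold change. With it the median of the members was -0.01 and that of all genes 0.05. PBS replicates 4 and 5 stood apart from the other PBS tumors on the first principal component of all genes, which held 21.3% of the variance. They were at -8.5 and -12.3, against -4.1 to 0.5 for the other PBS tumors and 0.7 to 9.4 for hetIL-15 tumors. On the second component, with 19.8%, hetIL-15 replicate 5 was farthest out, at -12.4. The results are also given without PBS replicates 4 and 5, chosen after seeing the data, where that changes a direction.

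Promoter sequence is shown for the members that the results below turn on and that had an entry in the RefSeq table (GRCm38.p6), in which 30 of 38 members matched. *Cd14*, *Lbp*, *Ly96*, *Ripk2*, *Sigirr*, *Ticam2*, *Tlr4* and *Tlr7* had none. *Tirap* and *Cd180* had the smallest p values among these members, *Myd88* the smallest spread, and *Ifih1* the most hetIL-15 tumors above all PBS tumors. *Tlr8* is a receptor with more than 1 of the motifs. *Tlr1* and *Tlr6*, not shown, also have more than 1 over their starts. Each line gives the 120 bases before a start site, 5′ to 3′ on the gene's strand, with capitals for any of 4 short motifs on either strand.
Tirap, chr9:35199966-35200085, minus strand: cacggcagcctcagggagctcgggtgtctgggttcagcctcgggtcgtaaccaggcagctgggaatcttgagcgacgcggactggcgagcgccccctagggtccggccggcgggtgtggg
Cd180, chr13:102693427-102693546, plus strand: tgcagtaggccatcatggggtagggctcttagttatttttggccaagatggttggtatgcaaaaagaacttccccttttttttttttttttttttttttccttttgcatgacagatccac
Myd88, chr9:119340019-119340138, minus strand: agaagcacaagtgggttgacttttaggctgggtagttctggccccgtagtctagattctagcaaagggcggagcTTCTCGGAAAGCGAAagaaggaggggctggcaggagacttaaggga
Tlr8, chrX:167264330-167264449, minus strand: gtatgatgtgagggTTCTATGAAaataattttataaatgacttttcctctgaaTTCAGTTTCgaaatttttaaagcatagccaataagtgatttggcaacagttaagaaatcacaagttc
Ifih1, chr2:62646256-62646375, minus strand: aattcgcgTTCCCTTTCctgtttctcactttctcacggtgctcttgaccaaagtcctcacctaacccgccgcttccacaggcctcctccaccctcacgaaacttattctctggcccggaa

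The motifs were TTCNNNGAA, the letters of a gamma-activated site that STAT proteins can bind, GAAANNGAA, part of an interferon-stimulated response element, GGANTTTCC, a kappa B form, and GAGGAAGT, a PU.1 form. They were searched from 250 bases before to 50 bases after each start. In the *Myd88* promoter the first begins at position -46 from the start and overlaps the second, which begins at -40, so the capitals there are 1 run. In the *Tlr8* promoter the first begins at -106 and the second at -67, and in the *Ifih1* promoter the second begins at -112. The windows of *Tirap* and *Cd180* shown hold none of the 4. Over all starts, TTCNNNGAA was found for 5 of 30 members (16.7%), against 9.55% of 27025 genes in the table, and GAAANNGAA for 7 (23.3%), against 9.76%. GGANTTTCC was found for 3 members (10.0%), against 1.45%, and GAGGAAGT for 3 (10.0%), against 3.69%. *Myd88* alone among the members held the first 3. These are letter matches only. The members with GAAANNGAA were *Ddx58*, *Ifih1*, *Irak3*, *Ly86*, *Myd88*, *Tlr6* and *Tlr8*. Since no member passed an adjusted p of 0.05 between the groups (limma), the calls cannot tell members with a motif from those without.

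All 9 Toll-like receptors on the panel had a lower mean in hetIL-15 tumors, *Tlr4* by less than the second decimal, with a median log2 fold change of -0.25, and 0 of 9 reached an unadjusted p of 0.05 (limma). Scaled to the housekeeping genes, 8 of 9 were lower with a median of -0.16, and the exception was *Tlr4*. Without PBS replicates 4 and 5 all 9 were lower, with a median of -0.35. The 95% interval lay within a 2-fold change for 7 of the 9.

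*Tlr9*, the endosomal receptor for unmethylated CpG DNA, had the smallest p among them. Its log2 value had a lowest, median and highest of 7.43, 7.99 and 8.17 in hetIL-15 tumors, against 8.17, 8.51, 8.55, 8.26 and 7.66 in PBS tumors. Only 1 hetIL-15 tumor was below every PBS tumor, and PBS replicates 1 and 5 lay within the hetIL-15 range. The log2 fold change was -0.31 ± 0.19 (SE), with an adjusted p of 0.586 by limma and p = 0.154 by the exact permutation test of the means, 2-sided as all such tests here. *Tlr2*, which binds lipopeptides as a dimer with *Tlr1* or *Tlr6*, had 6.51, 6.78 and 7.23 in hetIL-15 tumors by the same 3 measures, against 6.70, 7.06, 7.24, 6.94 and 7.29 in PBS tumors. Its groups overlapped over most of their range. The log2 fold change of *Tlr2* was -0.22 ± 0.15 (SE), with an adjusted limma p of 0.629 and p = 0.145 by exact permutation.

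*Tlr1* had a lowest, median and highest of 6.35, 6.89 and 7.49 in hetIL-15 tumors, against 7.0, 7.18, 7.81, 7.05 and 7.05 in PBS tumors. Of the 6 hetIL-15 tumors 4 were below every PBS tumor, and the highest PBS tumor stood well above the other PBS tumors. The log2 fold change of *Tlr1* was -0.31 ± 0.22 (SE, adjusted p = 0.655 by limma), and it was -0.16 without that tumor, PBS replicate 3. *Tlr6*, the partner of *Tlr2* for diacylated lipopeptides, had the same log2 fold change of -0.31 with a wider error of 0.33, and ran from -0.51 without PBS replicate 2 to -0.09 without hetIL-15 replicate 1. *Tlr5*, the flagellin receptor, was 1 of 3 members of low signal, that is with a mean among the lowest 25% of genes, and its interval was the widest of the receptors, with a log2 fold change of -0.42, a 95% interval from -1.59 to 0.75 and -0.05 without hetIL-15 replicate 1.

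Like *Tlr9*, the receptors *Tlr3* (double-stranded RNA), *Tlr7* (single-stranded RNA) and *Tlr8*, the relative of *Tlr7* next to it on the X chromosome, sit in endosomes. They had log2 fold changes of -0.21, -0.21 and -0.25, and every interval included 0. *Tlr4*, the receptor for lipopolysaccharide, had the same mean in both groups, at 8.46 ± 0.28 in hetIL-15 tumors and 8.46 ± 0.21 in PBS tumors (SD, n = 6 and 5). Its log2 fold change of -0.00 had a 95% interval from -0.34 to 0.34, and its sign turned under several settings.

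**Figure D2:**
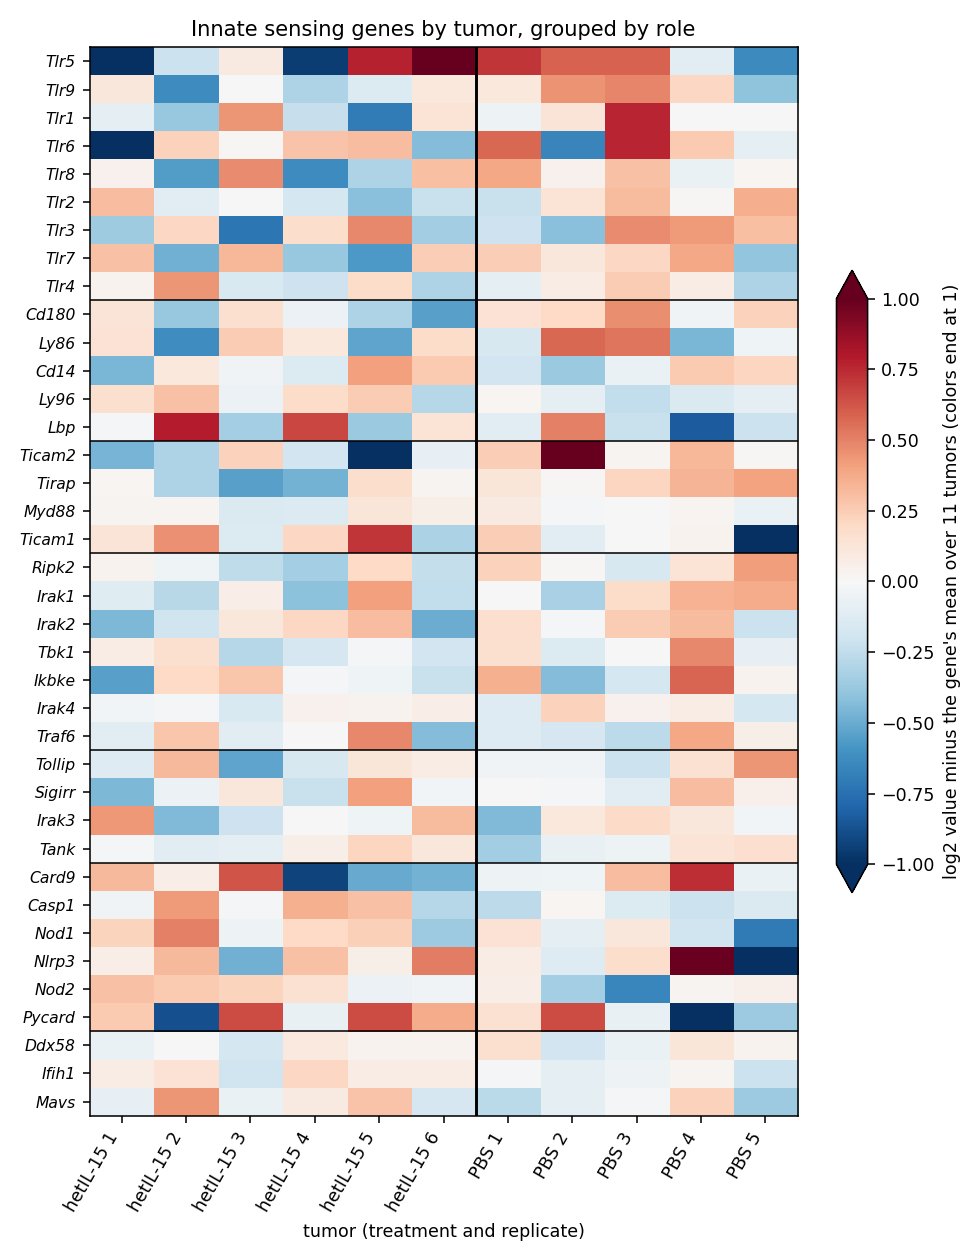
Log2 value of each of the 38 genes in each tumor minus the gene's own mean over 11 tumors, with hetIL-15 tumors left of the black line and PBS tumors right of it, and horizontal lines between the roles; colors end at 1 log2 unit. The median deviation of the Toll-like receptors is below 0 in 3 of 6 hetIL-15 tumors and 1 of 5 PBS tumors, no gene is of 1 color throughout a group and of the other in the rest, and single tumors such as PBS replicate 5 in Ticam1 and Nlrp3 stand out.

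Of 5 co-receptors and ligand carriers, 3 had a higher and 2 a lower mean in hetIL-15 tumors, with a median log2 fold change of 0.06. *Cd180* (RP105), a Toll-like receptor homolog of B cells, macrophages and dendritic cells, had a lowest, median and highest of 8.53, 8.89 and 9.23 in hetIL-15 tumors, against 9.22, 9.27, 9.54, 9.04 and 9.30 in PBS tumors. Of the 6 hetIL-15 tumors 4 were below every PBS tumor, and the other 2 lay within the PBS range. The log2 fold change was -0.37 ± 0.15 (SE), with p = 0.033 and an adjusted p of 0.359 by limma and p = 0.039 by the exact permutation test. With any 1 tumor left out it lay between -0.43 and -0.29, with an adjusted p of 0.268 or more.

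*Ly86* (MD-1), the secreted protein that holds Cd180 at the cell surface, had a log2 fold change of -0.17 ± 0.24 (SE). Across the 11 tumors *Cd180* and *Ly86* had a Pearson r of 0.57 and a Spearman rho of 0.55 (permutation p = 0.067 and 0.088, adjusted over 12 pairs 0.268 and 0.528), and r was 0.77 without the 2 tumors farthest from the median of *Cd180*. *Ly96* (MD-2), which does the same for Tlr4 and binds lipopolysaccharide, had a lowest, median and highest of 9.08, 9.53 and 9.66 in hetIL-15 tumors, against 9.38, 9.27, 9.12, 9.22 and 9.27 in PBS tumors. Here 4 hetIL-15 tumors were above every PBS tumor and 1 was below every PBS tumor. The log2 fold change of *Ly96* was 0.20 ± 0.12 (SE), with an adjusted limma p of 0.554 and p = 0.10 by exact permutation. *Cd14*, which hands lipopolysaccharide to the receptor, was at 0.06, and *Lbp*, the serum protein that hands it to Cd14, at 0.32 on the same scale, both with intervals that included 0.

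The 4 adaptors of the Toll and IL-1 receptors held the smallest p values of the members as well as the member of smallest spread. *Tirap* (MAL), which brings Myd88 to Tlr2 and Tlr4 at the membrane, had a lowest, median and highest of 7.0, 7.40 and 7.72 in hetIL-15 tumors, against 7.66, 7.55, 7.75, 7.88 and 7.94 in PBS tumors. Of the hetIL-15 tumors 3 were below every PBS tumor and 3 lay within the PBS range. The log2 fold change was -0.40 ± 0.15 (SE), with p = 0.021 and an adjusted p of 0.318 by limma and p = 0.035 by the exact permutation test. That p ranked 50 of 758 genes, the best rank of a member. With any 1 tumor left out the log2 fold change of *Tirap* was between -0.47 and -0.33.

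*Ticam2* (TRAM), which brings Ticam1 to Tlr4, had a lowest, median and highest of 4.10, 5.01 and 5.49 in hetIL-15 tumors, against 5.50, 6.62, 5.29, 5.59 and 5.27 in PBS tumors. Of the hetIL-15 tumors 5 were below every PBS tumor, while PBS replicate 2 stood more than 1 log2 unit above the other PBS tumors. In hetIL-15 over PBS tumors the log2 fold change was -0.72 ± 0.29 (SE), the largest in size among the members, with p = 0.030 and an adjusted p of 0.358 by limma and p = 0.022 by the exact permutation test. Without PBS replicate 2 it was -0.48 ± 0.23, with an adjusted p of 0.411. The mean of *Ticam2* over all tumors, 5.26, lay just above the low-signal cut of 5.18, and its hetIL-15 mean of 4.93 lay below that cut.

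*Ticam1* (TRIF), the adaptor of Tlr3 and, through Ticam2, of Tlr4, was the 1 adaptor whose hetIL-15 mean was the higher. It had a lowest, median and highest of 5.53, 6.02 and 6.56 in hetIL-15 tumors, against 6.09, 5.73, 5.85, 5.88 and 4.62 in PBS tumors. There were 2 hetIL-15 tumors above every PBS tumor, and the last PBS tumor was below every hetIL-15 tumor. Its log2 fold change was 0.38 ± 0.27 (SE), with an adjusted limma p of 0.657, and was 0.13 without PBS replicate 5. *Myd88*, the adaptor that all Toll-like receptors but Tlr3 use, had 9.28, 9.45 and 9.54 in hetIL-15 tumors by the same measures, against 9.51, 9.41, 9.42, 9.45 and 9.36 in PBS tumors. Its SD within groups, 0.09 log2 units, was the smallest of the members, and its log2 fold change of -0.02 had a 95% interval from -0.19 to 0.16.

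**Figure D3:**
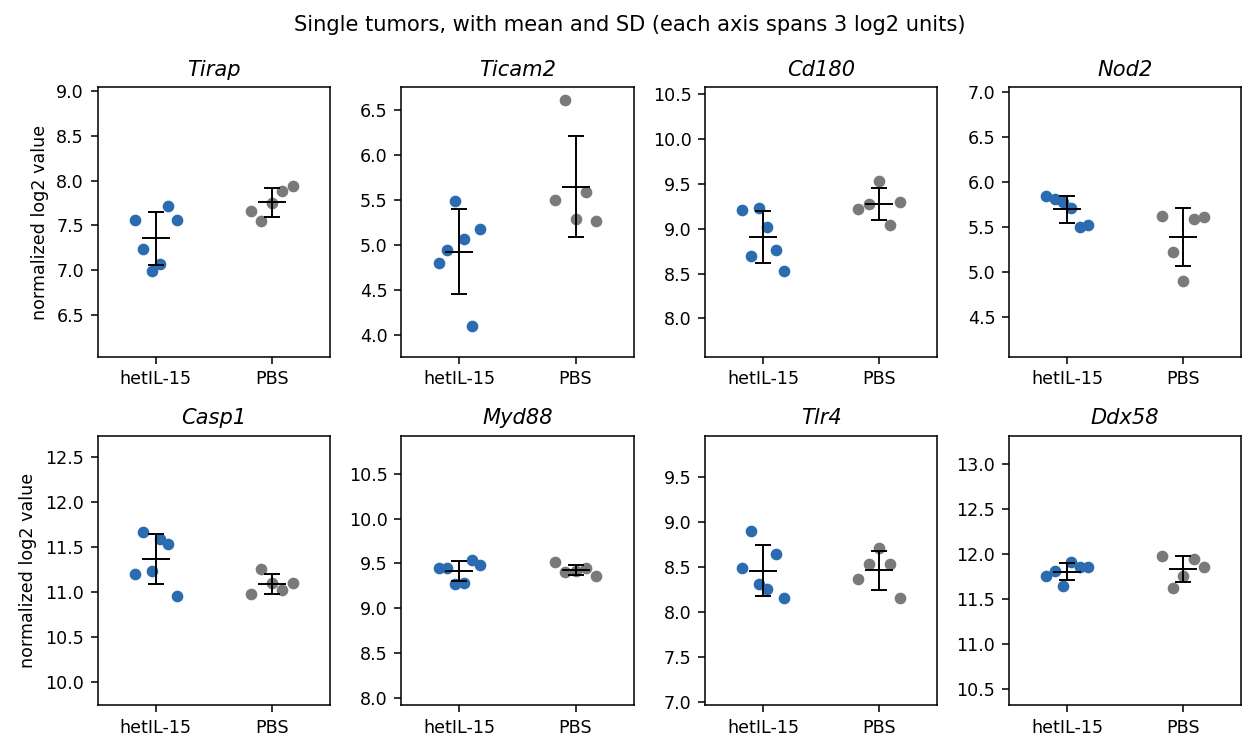
Normalized log2 value (vertical axis, each spanning 3 log2 units) in single hetIL-15 and PBS tumors, with mean and SD, for 8 members. Tirap, Ticam2 and Cd180 sit lower in most hetIL-15 tumors, Nod2 and Casp1 higher in several, and Myd88, Tlr4 and Ddx58 cover the same range in both groups.

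The 6 signaling kinases and the ubiquitin ligase Traf6 made a group of 7, of which 6 had a lower mean in hetIL-15 tumors and 1 a higher one, with a median log2 fold change of -0.16. None reached an unadjusted p of 0.05, and every 95% interval lay within a 2-fold change. *Ripk2*, the kinase that Nod1 and Nod2 use, had a lowest, median and highest of 8.68, 8.87 and 9.21 in hetIL-15 tumors, against 9.25, 9.02, 8.85, 9.15 and 9.43 in PBS tumors. Of the hetIL-15 tumors 3 were below every PBS tumor. Its log2 fold change was -0.23 ± 0.13 (SE), with an adjusted limma p of 0.550 and p = 0.102 by exact permutation. *Irak1*, which Irak4 phosphorylates at the Myd88 complex, had 8.37, 8.60 and 9.19 in hetIL-15 tumors, against 8.78, 8.45, 8.96, 9.13 and 9.15 in PBS tumors, with the groups overlapping over most of their range. Its log2 fold change was -0.21 ± 0.17 (SE), with an adjusted limma p of 0.750 and p = 0.262 by exact permutation.

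The kinases that feed interferon induction, *Tbk1* and *Ikbke*, had log2 fold changes of -0.16 and -0.13, and *Irak2* had -0.19. *Irak4*, the first kinase of the Myd88 complex, was nearly level between the groups, at -0.02 with a 95% interval from -0.22 to 0.19. *Traf6*, the ligase that passes the signal on to NF-kB and MAP kinases, was at 0.04 ± 0.17 (SE).

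The 4 genes that restrain or scaffold these signals lay close to level between the groups. Their log2 fold changes ran from -0.11 to 0.06, and every 95% interval lay within a 1.5-fold change. *Tollip*, which holds Irak1 in check, had a lowest, median and highest of 8.93, 9.43 and 9.78 in hetIL-15 tumors, against 9.42, 9.42, 9.24, 9.61 and 9.90 in PBS tumors. Its log2 fold change was -0.11 ± 0.16 (SE), with an adjusted limma p of 0.869 and p = 0.526 by exact permutation. *Sigirr*, an inhibitory receptor of the IL-1 family, had 8.43, 8.83 and 9.29 in hetIL-15 tumors, against 8.88, 8.86, 8.76, 9.19 and 8.93 in PBS tumors. The hetIL-15 tumors extended past the PBS tumors at both ends, and the log2 fold change was -0.08 ± 0.15 (SE), with an adjusted limma p of 0.899 and p = 0.589 by exact permutation. *Irak3* (IRAK-M), which blocks IRAK signaling in macrophages, and *Tank*, a scaffold of Tbk1, were at 0.02 and 0.06.

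Of 6 NOD-like receptor and inflammasome genes, 5 had the higher mean in the hetIL-15 group, with a median log2 fold change of 0.28, and 0 of 6 reached an unadjusted p of 0.05 (limma). Scaled to the housekeeping genes 5 of 6 were higher with a median of 0.37, and 2 reached it, *Nod2* at 0.40 and *Casp1* at 0.36 (limma, adjusted p = 0.309 and 0.390). Without PBS replicates 4 and 5, 4 of 6 were higher, the median was 0.08 and 1 reached it. *Nod2*, the sensor of muramyl dipeptide, had a lowest, median and highest of 5.50, 5.75 and 5.85 in hetIL-15 tumors, against 5.63, 5.22, 4.91, 5.59 and 5.61 in PBS tumors. Of the hetIL-15 tumors 4 were above every PBS tumor. In hetIL-15 over PBS tumors the log2 fold change was 0.31 ± 0.15 (SE), with p = 0.060 and an adjusted p of 0.471 by limma and p = 0.045 by the exact permutation test. Leaving out PBS replicate 3, the lowest tumor, gave 0.19 for *Nod2*.

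*Casp1*, the protease of the inflammasome, had a lowest, median and highest of 10.95, 11.38 and 11.67 in hetIL-15 tumors, against 10.97, 11.26, 11.10, 11.02 and 11.10 in PBS tumors. Of the hetIL-15 tumors 3 were above every PBS tumor and 1 was below every PBS tumor. For *Casp1* the log2 fold change was 0.27 ± 0.14 (SE), with an adjusted limma p of 0.484 and p = 0.084 by exact permutation. *Nod1*, the sensor of a peptidoglycan fragment of mainly Gram-negative bacteria, also had a log2 fold change of 0.27, with 4 hetIL-15 tumors above every PBS tumor, and 0.13 without PBS replicate 5.

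The inflammasome sensor *Nlrp3* and its adaptor *Pycard* (ASC) were measured less precisely. *Nlrp3* had a log2 fold change of 0.28 with a 95% interval from -0.64 to 1.21, and 2 of the PBS tumors, at 6.66 and 3.78, lay outside the whole hetIL-15 range of 5.19 to 6.18. Without PBS replicate 5, the lower of these, its mean was no longer higher in hetIL-15 tumors. *Pycard*, of low signal, was at 0.36 with an interval from -0.45 to 1.18, and at -0.08 without PBS replicates 4 and 5. *Card9*, the adaptor of C-type lectin receptors and the member with the lowest mean, had a lowest, median and highest of 2.92, 3.64 and 4.47 in hetIL-15 tumors, against 3.79, 3.80, 4.15, 4.58 and 3.78 in PBS tumors. It was the 1 gene of the group with a lower mean in hetIL-15 tumors, at -0.32 ± 0.28 (SE, adjusted p = 0.752 by limma), and its low signal makes the values coarse.

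The 3 genes of the RIG-I-like pathway had narrow intervals, all within a 1.5-fold change. *Ifih1* (MDA5), the sensor of long double-stranded RNA, had a lowest, median and highest of 10.87, 11.15 and 11.28 in hetIL-15 tumors, against 11.06, 10.97, 11.02, 11.10 and 10.86 in PBS tumors. Of the hetIL-15 tumors 5 were above every PBS tumor, and the other, replicate 3, lay between the lowest PBS tumors. Its log2 fold change was 0.13 ± 0.09 (SE), with an adjusted limma p of 0.641 and p = 0.106 by exact permutation. Since that tumor alone overlapped the PBS tumors, leaving it out had to part the groups of *Ifih1*. In that setting 3.83% of all genes had groups that did not overlap. The log2 fold change of *Ifih1* was then 0.18 ± 0.08 (SE), with an adjusted limma p of 0.416.

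*Mavs*, the mitochondrial adaptor, had a lowest, median and highest of 9.25, 9.43 and 9.86 in hetIL-15 tumors, against 9.15, 9.32, 9.40, 9.65 and 9.05 in PBS tumors. In hetIL-15 over PBS tumors the log2 fold change was 0.19 ± 0.14 (SE), with an adjusted limma p of 0.716 and p = 0.223 by exact permutation. *Ddx58* (RIG-I), the sensor of short RNA with a triphosphate end and the member with the highest mean, had 11.65, 11.83 and 11.92 in hetIL-15 tumors, against 11.98, 11.63, 11.76, 11.94 and 11.86 in PBS tumors. The hetIL-15 tumors lay inside the PBS range, and the log2 fold change was -0.02, with a 95% interval from -0.22 to 0.17.

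Members that work as partners were set against each other across the 11 tumors in 12 pairs, and none passed an adjusted p of 0.05. *Tlr7* and *Tlr8* looked the closest, but *Tlr7* fell into separate sets of tumors, 4 between 6.43 and 6.63 (3 hetIL-15 and 1 PBS) and 7 between 7.12 and 7.39. *Tlr8* was between 7.45 and 8.09 in the 4 and between 8.01 and 8.55 in the 7. Over all 11 tumors Pearson's r was 0.77 and rho 0.62, and r was 0.65 without the 2 tumors farthest from the median of *Tlr7*. The permutation p values over all tumors were 0.0088 and 0.048, or 0.105 and 0.528 adjusted over the 12 pairs. Within the 7, a set formed after seeing the data, r was -0.05 and rho 0.02 (exact permutation p = 0.921 and 0.986). The 7 span a narrow range of *Tlr7*, so these values cannot decide whether the pair varies together. *Ddx58* and *Ifih1*, which both sense viral RNA, had r of 0.46 and a Spearman rho of 0.33 (permutation p = 0.155 and 0.314, adjusted 0.387 and 0.534), and r was 0.05 without the 2 tumors farthest from the median of *Ddx58*. The most negative r, -0.43, was that of *Tlr2* and *Cd14*, with rho of -0.37 (permutation p = 0.183 and 0.261, adjusted 0.387 and 0.534).

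Tumors hold macrophages in different amounts, so each member was also set against the mean log2 value of 9 macrophage and monocyte markers, such as *Csf1r*, *Cd68* and *Mrc1*. That mean was 9.13 ± 0.23 in hetIL-15 tumors and 9.20 ± 0.25 in PBS tumors (SD, n = 6 and 5), with ranges of 8.86 to 9.36 and 8.81 to 9.41, and 0 of the 9 markers were called. The 38 correlations had a median r of -0.32, and 2 of them passed an adjusted p of 0.05. *Ly86* followed the markers, with a Pearson r of 0.91 and a Spearman rho of 0.93 (permutation p = 0.00014 and 8e-05, adjusted 0.0027 and 0.0030). *Traf6* ran against them, with r of -0.92 and rho of -0.88 (permutation p = 0.00012 and 0.00070, adjusted 0.0027 and 0.013). Without the 2 tumors farthest from the median of the markers, r was 0.87 for *Ly86* and -0.84 for *Traf6*. By the same measure r was 0.94 for *Tlr9*, 0.89 for *Tlr7*, 0.87 for *Pycard*, 0.80 for *Tlr8*, 0.76 for *Tlr1* and -0.71 for *Ly96*. These were the largest in size by that measure among the members that did not pass. Over all 11 tumors they had r of 0.60, 0.57, 0.63, 0.71, 0.73 and -0.52, with adjusted permutation p from 0.103 to 0.247.

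After the group means were removed r was 0.91 for *Ly86* and -0.92 for *Traf6*, each with an adjusted permutation p of 0.0099. Scaled to the housekeeping genes *Ly86* had r of 0.94, while *Traf6* had -0.72 with an adjusted permutation p of 0.125, so its call was lost. The 3 tumors with a marker mean between 8.81 and 8.87, 2 of them hetIL-15, were also the lowest in *Ly86* and the highest in *Traf6*. In the other 8 tumors, a set formed after seeing the data, r was 0.70 and rho 0.90 for *Ly86* (exact permutation p = 0.053 and 0.0046), and r was -0.67 and rho -0.71 for *Traf6* (exact permutation p = 0.063 and 0.058). With PBS replicates 4 and 5 left out together, the count of members past the adjusted threshold was 8. They were *Ly86*, *Ly96*, *Mavs*, *Ticam1*, *Tlr1*, *Tlr7*, *Tlr9* and *Traf6*. Without PBS replicate 4 alone they were *Ly86*, *Tlr1*, *Tlr7*, *Tlr9* and *Traf6*.

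**Figure D4:**
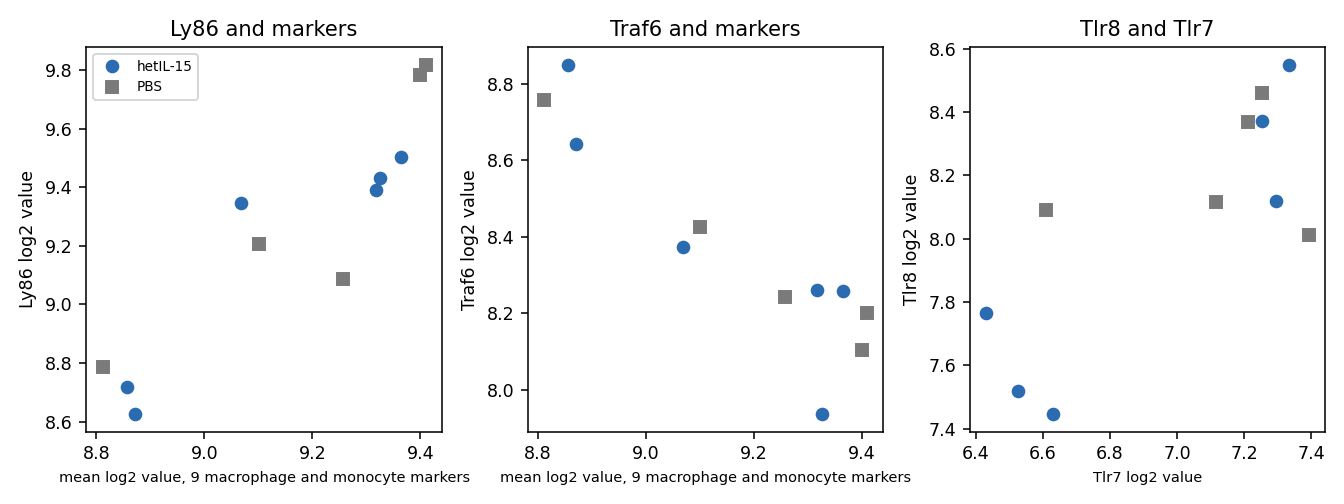
Log2 values in single tumors, with hetIL-15 tumors as blue circles and PBS tumors as gray squares: Ly86 (left) and Traf6 (middle) against the mean of 9 macrophage and monocyte markers, and Tlr8 against Tlr7 (right). Ly86 is higher and Traf6 lower where the markers are higher, in both groups alike; 4 tumors lie apart at low Tlr7, of which the 3 hetIL-15 tumors are also the lowest in Tlr8.

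Genes that these sensors signal to, and other sensors on the panel, were taken from 5 further lists. None of the 15 NF-kB pathway genes, 17 MAP kinase and AP-1 genes, 7 interferon regulatory factors, 23 output cytokines and chemokines or 13 other sensors was called in either direction (limma, adjusted p under 0.05). Their median log2 fold changes were -0.03, -0.06, 0.04, -0.12 and 0.03, against -0.03 over all genes. At an unadjusted p of 0.05 they held 1, 0, 0, 1 and 1 genes.

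The single genes of smallest p were these. *Traf3*, a brake of non-canonical NF-kB signaling, had a log2 fold change of -0.36, and *Ikbkb*, the kinase that frees NF-kB, had -0.15. *Fos*, a part of AP-1, had -0.34, and *Map3k5*, a stress kinase, had -0.32. In the next lists *Irf5*, which acts below Myd88, had -0.35, and *Irf4*, which competes with it and was of low signal, had 0.36. Among the outputs the monocyte chemokine gene *Ccl2* had 0.44, and the interferon-induced chemokine gene *Cxcl10* had -0.26. *Syk*, the kinase of C-type lectin receptors, had -0.36, and *Clec7a* (Dectin-1), a receptor that signals through it, had 0.43. The smallest adjusted limma p among these 10 genes was 0.206, that of *Ccl2*.

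Marker lists of the cells that could carry these genes are given beside the results. Of 5 NK cell markers 2 rose in hetIL-15 tumors, *Ncr1* by 1.10 and *Klrc1* by 1.32 on the log2 scale (limma, adjusted p = 0.016 and 0.023), and no gene of another marker list was called. Both calls were lost with the replicate number as a block (adjusted p = 0.097 and 0.090), with Bonferroni adjustment (0.114 and 0.227) and without PBS replicates 4 and 5 (0.114 and 0.145). Replicate numbers do not pair the tumors, and the block fit left out hetIL-15 replicate 6, which has no partner. The log2 fold changes in that fit were 1.15 for *Ncr1* and 1.38 for *Klrc1*. B cell markers were low in signal throughout, with all 5 among the lowest 25% of genes. Their mean ran from 3.22 to 3.93 in hetIL-15 tumors and from 3.84 to 4.50 in PBS tumors, and their median log2 fold change was -0.42, with *Cd79b* at -0.42. Their part in the values of *Cd180* and *Tlr9* was not tested. Among 6 markers of conventional dendritic cells 3 had a lower and 3 a higher mean, with a median of 0.05. The 2 of smallest p were *Itgax* at -0.76 (limma, adjusted p = 0.126) and *Batf3* at -0.37. With 1 tumor left out *Itgax* ran from -0.90 to -0.66, and its adjusted limma p from 0.042 to 0.248. The mean of the 6 markers ran from 4.96 to 5.49 in hetIL-15 tumors and from 5.19 to 5.43 in PBS tumors. Their part in the values of the Toll-like receptors was not tested.

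Macrophage and monocyte markers, with *Itgam* at 0.14 and *Emr1* at -0.18, and plasmacytoid dendritic cell markers, with *Bst2* at -0.21 and *Lag3* at 0.11, had medians of -0.04 and -0.02. The medians were -0.09 for 6 neutrophil markers, of which 4 had a lower mean, with *Mpo* at -0.60 and *Csf3r* at -0.30, and 0.15 for 6 T cell markers, of which 4 had a higher mean, with *Cd3g* at 0.39 and *Cd3d* at 0.23. All 5 endothelial markers had a lower mean in hetIL-15 tumors, with a median of -0.26, *Tek* at -0.58 and *Cdh5* at -0.23. Of 4 epithelial markers 3 were of low signal, so the label of a carcinoma could be checked only weakly, and their median was -0.09, with *Cdh1* at 0.52 and *Muc1* at -0.28.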

How the data were processed

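MC38 tumors were grouped by the treatment in the labels. The authors removed low expressed genes, log transformed the nCounter data and quantile normalized them, and the deposited log2 values of 758 genes were used as given; off the log2 scale each tumor sums to 999186 to 999245. A table of probe counts served only for probe names and accessions: its 11 count columns carry names that match no tumor and were not used, so the depth per tumor is unknown. Within a tumor 69.9% of values are shared with another gene, so low values are coarse. Each animal gave 1 tumor as far as the labels show, and p values measure the spread between these tumors.

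Groups were compared with limma 3.58.1 (lmFit, eBayes, no covariates) in R 4.3.3, with Benjamini-Hochberg adjustment over all 758 genes and a threshold of 0.05. Exact permutation tests used all 462 groupings of the tumors, with 0.0022 as the smallest p they can give. Correlations used 100000 permutations in Python 3.11.15 with scipy 1.17.1. Members and lists were chosen with earlier results of these data known. Values were given in full for members at an unadjusted p under 0.05, the 2 of smallest p in each role, the highest and lowest by mean, and members with a far tumor in a group. From the other lists, called genes and the 2 of smallest p were named, except 1 gene that is not reported here. *Myd88* was given in full, and other members by fold, after their values were seen. All 38 members matched RefSeq by accession with the same symbol. Alternatives were a common median or a common housekeeping mean in every tumor, dropping the lowest 25% of genes, adding an offset of 10, a trended or robust prior, array weights, Bonferroni, Mann-Whitney, leaving out each tumor, and the replicate number as a block.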

Additional observations from a re-analysis of the deposited data

Results flagged for a closer look

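Each member's values in each group were searched for a tumor far from the rest by Dixon's ratio, and 4 of 76 groups held one, where chance gives about 1 in 20. *Ifih1* was lowest in hetIL-15 replicate 3, at 10.9, with the others between 11.1 and 11.3. *Ticam1* was lowest in PBS replicate 5, at 4.62, with the others between 5.73 and 6.09. *Ticam2* was highest in PBS replicate 2, at 6.62, with the others between 5.27 and 5.59. *Tlr1* was highest in PBS replicate 3, at 7.81, with the others between 7.0 and 7.18. Without that tumor the adjusted limma p was 0.416 for *Ifih1*, 0.944 for *Ticam1*, 0.411 for *Ticam2* and 0.831 for *Tlr1*.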

How the results depend on the processing

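No member passed an adjusted p of 0.05 under any alternative run, where the smallest adjusted p was 0.246, and 794 of 833 recomputed log2 fold changes of members kept their sign. Replicate numbers do not pair the tumors (correlations of deviations from -0.05 to 0.13, and 1 of 5 PBS tumors correlating best with its own number). With the replicate block 5 members reached an unadjusted p of 0.05 in place of 3, against 10.8% of all genes. *Ticam2*, *Tirap* and *Tlr1* were lower, and *Casp1* and *Ly96* higher. In that fit *Tlr4* was at 0.060 and *Irak3* at -0.038, and *Ncr1* and *Klrc1* lost their calls (limma, adjusted p = 0.097 and 0.090). Both calls were also lost under Bonferroni, Mann-Whitney and without PBS replicates 4 and 5. With 1 tumor left out the call of *Klrc1* was lost 4 times. The unadjusted count ran from 1 (without PBS replicate 2) to 4 with 1 tumor left out, where the share of all genes ran from 8.44% to 12.8%. The members' median was -0.011 with housekeeping scaling and from -0.11 to -0.014 with 1 tumor left out (-0.014 without PBS replicate 4). Without hetIL-15 replicate 3, 2 members (*Ifih1*, *Ticam2*) had groups that did not overlap, against 3.83% of all genes, with 0 otherwise. Partner pairs past the threshold were 2 with housekeeping scaling (*Tlr7* and *Tlr8*, *Ddx58* and *Ifih1*) and 0 to 1 with 1 tumor left out (*Cd180* and *Ly86* without hetIL-15 replicate 6, *Tlr7* and *Tlr8* without PBS replicate 4). Members past it against macrophage markers were 1 with housekeeping scaling, 8 without PBS replicates 4 and 5 (chosen after seeing the data), and 2 to 5 with 1 tumor left out, the most without PBS replicate 4. Signs turned with housekeeping scaling for *Ddx58* (0.062), *Irak4* (0.071), *Myd88* (0.071), *Sigirr* (0.0025) and *Tlr4* (0.085), with median scaling for *Tlr4* (0.0011), with array weights for *Irak4* (0.0029), and without PBS replicates 4 and 5 for *Ddx58* (0.021), *Ikbke* (0.029), *Pycard* (-0.079), *Sigirr* (0.0052) and *Tollip* (0.046). With 1 tumor left out, signs turned within -0.029 to 0.15 for *Cd14*, -0.076 to 0.012 for *Ddx58*, -0.083 to 0.11 for *Irak3*, -0.061 to 0.039 for *Irak4*, -0.041 to 0.011 for *Myd88*, -0.15 to 0.57 for *Nlrp3*, -0.018 to 0.11 for *Tank*, -0.091 to 0.061 for *Tlr4*, -0.052 to 0.14 for *Traf6* and -0.046 to 0.26 for *Lag3*. Of the other members 21 kept their sign but moved by over 1.5 times with some tumor left out, among them *Lbp* (0.15 to 0.49) and *Tlr3* (-0.34 to -0.08), and 8 did not. The cause was not tested. Depth per tumor is unknown, *Card9*, *Tlr5* and *Pycard* were of low signal, and *Ticam2* lay just above the cut.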
